A study of Rattus norvegicus with 4 samples.

Results

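Genes of haem synthesis, globin and iron handling were examined on 4 expression arrays of AA4-selected mast cells from the pancreatic lymph nodes of BioBreeding rats. The set was chosen by symbol. It covers beta-globin (Hbb), the erythroid and the housekeeping form of 5-aminolevulinate synthase (Alas2 and Alas1), the transferrin receptor (Tfrc), the iron exporter ferroportin (Slc40a1), haem oxygenase (Hmox1), the ferritin chains (Fth1 and Ftl1) and the metal transporters Slc11a1 and Slc11a2. Of these 10 genes, 7 had a probe set annotated to that symbol alone. They gave 11 of the 20826 probe sets with a single symbol, out of 31099 on the array. Fth1 and Ftl1 were each listed only in a probe set annotated to several genes, and Slc11a1 was not matched, so these 3 genes were not analysed here.

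The diabetes-prone group was of the DRlyp/lyp genotype and the diabetes-resistant group of the DR+/+ genotype, and both consisted of female rats at day 65. The labels name no treatment. RNA of 8 animals was combined into 1 pool per group, and about 50 ng of each pool was amplified independently, in 2 cycles, for each of 2 arrays. The 2 arrays of a group are therefore repeats of 1 pool, and every SD and p-value below measures the spread between amplifications and arrays, not between animals or strains. The question the comparison addresses is how the selected cells of the prone and the resistant animals differ.

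Haem is built from glycine and succinyl-coenzyme A in a chain of enzymes that starts and ends in mitochondria, and 5-aminolevulinate synthase sets its pace. Red cell precursors use Alas2 and take up iron through the transferrin receptor to fill globin, while other cells make smaller amounts of haem with Alas1. Macrophages of spleen, liver and lymphoid tissue take up old red cells, open the haem ring with haem oxygenase, and store the iron in ferritin or return it to plasma through ferroportin.

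The genes had been picked with results of this same comparison already known, so their differences are given as values without a test. A probe set with signal above 28.3, the median of all values, on at least 2 arrays was compared, which held for 16068 probe sets and for all 11 of the set. Signals at or below 6.8, the 25th percentile, were set to 6.8 before the log2 transformation. Signal depends on the probes, so signals of different probe sets are not compared.

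The arrays of a pool correlated at 0.983 (DRlyp/lyp) and 0.975 (DR+/+) over the probe sets compared. The 3′ minus 5′ log2 signal of beta-actin, which grows as the amplified RNA shortens, was 4.43 and 4.55 on the DRlyp/lyp arrays and 3.01 and 3.10 on the DR+/+ arrays. It moved with every difference below, and its part in them was not tested. Kit, a defining mast cell gene, lay below the filter on all 4 arrays (1.4, 2.0, 10.4 and 11.3), while 12 of 13 mast cell markers exceeded it on at least 1 array. Summed signal of the mast cell markers was 3115.3 to 3218.3 in the DRlyp/lyp pool and 1990.7 to 2037.5 in the DR+/+ pool. Without the protease Mcpt1, left out after the sums were seen, it was 1513.4 to 1553.5 against 1321.8 to 1382.1, and the tryptases Tpsab1 (29.8 and 19.9 against 102.8 and 77.0) and Tpsb2 (34.4 and 28.7 against 92.6 and 89.4) lay on the other side. Genes of other cells were present too. Summed signal of 13 T cell genes was 9860.3 to 9871.5 against 2249.5 to 2499.6, of 5 B cell genes 9750.7 to 10326.7 against 11711.1 to 12803.8, and of 15 exocrine pancreas genes 11751.8 to 12318.8 against 289 to 294.5. DRlyp/lyp rats are known for few peripheral T cells, yet 12 of 13 T cell genes were higher on both arrays labelled DRlyp/lyp. The labels were kept as given. In such mixed samples, fewer cells of a type and less RNA per cell cannot be told apart.

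Of the 11 probe sets, 3 read higher on both DRlyp/lyp arrays than on either DR+/+ array, 7 read lower, and 1 overlapped. Arrays of the pools did not overlap for 70% of all probe sets compared (34.6% with the DRlyp/lyp arrays above and 35.4% with them below), so nothing is read from this count. A test over all of these probe sets called 39.2% at an adjusted p of 0.05 (limma, Benjamini-Hochberg), 19.3% as higher and 19.9% as lower in the DRlyp/lyp pool. Hbb, Alas2 and a probe set of Slc11a2 made up the higher ones. Alas1, Hmox1, both probe sets of Tfrc and the 3 of Slc40a1 made up the lower ones.

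**Figure D1:**
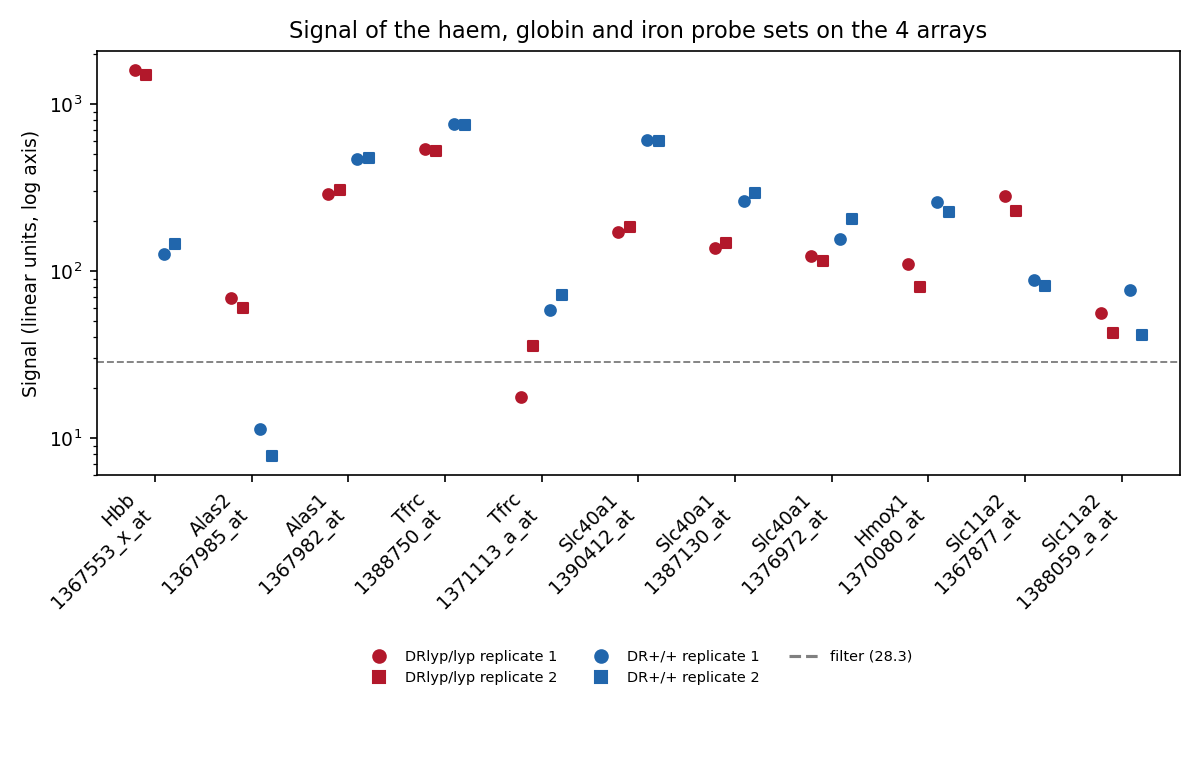
Signal (linear units on a log axis) of the 11 probe sets on each of the 4 arrays, with DRlyp/lyp in red and DR+/+ in blue, replicate 1 as circles and replicate 2 as squares. The dashed line is the filter of 28.3. Hbb read 1490.4 to 1595.4 in the DRlyp/lyp pool against 125.8 to 144.1, and Slc40a1 (1390412_at) 171.7 to 184.1 against 598.3 to 610.5.

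Among the 11 probe sets, beta-globin had the widest gap of those above the filter in both pools. Hbb (1367553_x_at) read 1595.4 and 1490.4 on the DRlyp/lyp arrays and 125.8 and 144.1 on the DR+/+ arrays. Both DRlyp/lyp arrays stood far above both DR+/+ arrays, and the means were 1543 ± 74.2 and 135 ± 12.9 (SD, n = 2 arrays of 1 pool), an 11.5-fold gap or 3.52 on the log2 scale. Among the 8023 probe sets with higher signal in the DRlyp/lyp pool, 30 differed by more (0.374%). The suffix of this probe set marks probes that can match other transcripts, and rats carry several near-identical beta-globin genes, so the signal is not that of 1 gene for certain.

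The bases before the start of Hbb are shown because they hold, in this window, the binding letters of erythroid Krüppel-like factors, which switch on adult globin. The 250 bases before the RefSeq start (GRCr8, chr1:167663722-167663971, minus strand, 5′ to 3′, CCACACCC in capitals) were:
Hbb: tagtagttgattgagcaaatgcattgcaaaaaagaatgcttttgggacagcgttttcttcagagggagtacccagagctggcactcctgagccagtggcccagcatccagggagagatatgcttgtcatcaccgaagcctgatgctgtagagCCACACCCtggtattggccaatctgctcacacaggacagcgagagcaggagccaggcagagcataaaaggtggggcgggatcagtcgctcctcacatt
The motif CCACACCC, searched on both strands, began 98 bases before the start. It occurs in 2.84% of the 33469 RefSeq windows of this length. For Alas2, the table's window (GRCr8, chrX:22895200-22895449, plus strand, 5′ to 3′, AGATAA in capitals, the letters bound by GATA factors) was:
Alas2: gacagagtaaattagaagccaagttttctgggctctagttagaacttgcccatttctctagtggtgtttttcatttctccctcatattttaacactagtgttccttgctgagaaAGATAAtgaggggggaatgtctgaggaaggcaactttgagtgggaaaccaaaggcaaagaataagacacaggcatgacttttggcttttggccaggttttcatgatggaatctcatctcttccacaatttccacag
AGATAA, searched on both strands, began 136 bases before that start and occurs in 10.3% of all windows. The start used lies 4800 bases inside the gene's RefSeq span, so it need not be the start used by red cell precursors. Of the 10 genes, 6 had a window in the table, Slc11a2 having 2. Hmox1, Fth1, Ftl1 and Slc11a1 had no window, so no motif was sought in them. CCACACCC was found in the window of Hbb alone and AGATAA in that of Alas2 alone. TGACNNNGC, the antioxidant response element, searched on both strands, was in 0 of the 7 windows and 10.1% of all. CAGTGN, the loop of the iron-responsive element, searched on the gene's strand in the 50 bases after the start, was in 0 of 7 and 7.26% of all. Only these 50 bases were searched, so an element elsewhere in the transcript would be missed and nothing is read from the 0. The starts used for Slc40a1 and Slc11a2 also lie inside the gene's span, by 90003 bases for Slc40a1 and by 12133 and 10982 for Slc11a2, so the windows need not hold the first exon of their usual transcripts. These matches are descriptions of letters, not of binding.

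Alas2, whose product makes 5-aminolevulinate in red cell precursors, read 68.7 and 60.3 in the DRlyp/lyp pool and 11.3 and 7.8 in the DR+/+ pool. Both DR+/+ arrays lay below the filter, so their signal is not shown to be above background and the gap of 64.5 ± 5.94 against 9.55 ± 2.47 is at least 2.27-fold (SD, n = 2). Alas2 was kept by the filter through its DRlyp/lyp signal alone, and so could only have come out higher. Its log2 difference was 2.78 with the floor of 6.8 and 0.94 with an offset of 50 in its place.

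Other erythroid genes did not share a direction. Of 42 names on an erythroid list that leaves out Hbb and Alas2, 26 had a probe set and 10 passed the filter. By that test 3 of the 10 were higher in the DRlyp/lyp pool and 2 were lower, and their median log2 difference was 0.28. Among all 9349 genes tested, 20.9% came out higher and 21.1% lower, around a median of 0.00. The alpha-globin Hba-a3 read 247.5 and 285.4 against 25.5 and 51.2, a log2 difference of 2.88 ± 0.30 (SE; adjusted p = 1.95e-05). Nfe2, a factor that activates globin genes, read 216.9 and 237.6 against 123.2 and 129.8 (0.84, adjusted p = 0.00172). Lmo2, a bridge protein of the erythroid transcription complex that other blood cells also express, read 905.6 and 818.1 against 1298.7 and 1403.2 (-0.65, adjusted p = 0.00014). Genes that define red cells stayed below the filter on all 4 arrays, among them the anion exchanger Slc4a1, the Rh glycoprotein Rhag, the membrane protein Epb42, the factors Gata1 and Klf1, and Ahsp, which holds free alpha-globin (9.7 and 26.2 against 2.7 and 0.7). The summed signal of the 26 genes was 3019.7 and 2886.8 in the DRlyp/lyp pool and 2905.8 and 3144.1 in the DR+/+ pool. Without Lmo2, a choice made after the sums were seen, the sums were 2114.1 and 2068.7 against 1607.1 and 1740.9. Leaving out Hba-a3 in place of Lmo2 would put both DRlyp/lyp sums below both DR+/+ sums. The direction of the sum thus depends on the gene left out. The part of these markers in the values of Hbb and Alas2 was not tested. Of the 26, 11 read higher on both DRlyp/lyp arrays, 4 lower, and 12 exceeded the filter on at least 1 array. Of all probe sets compared, 34.6% had the DRlyp/lyp arrays above and 35.4% below. The 11 include genes below the filter on all 4 arrays, such as Ahsp, Epb42 and Hbe1, so nothing is read from this count. With an array left out, the spread comes from the 2 arrays of the other pool, on 1 residual degree of freedom, and the lone array is assumed to vary like them. Without a filter the calls of Hba-a3 (adjusted p = 0.0852) and Lmo2 (adjusted p = 0.0659) were lost, and the erythroid calls numbered 2 higher and 1 lower without DRlyp/lyp replicate 1 and likewise without DRlyp/lyp replicate 2.

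**Figure D2:**
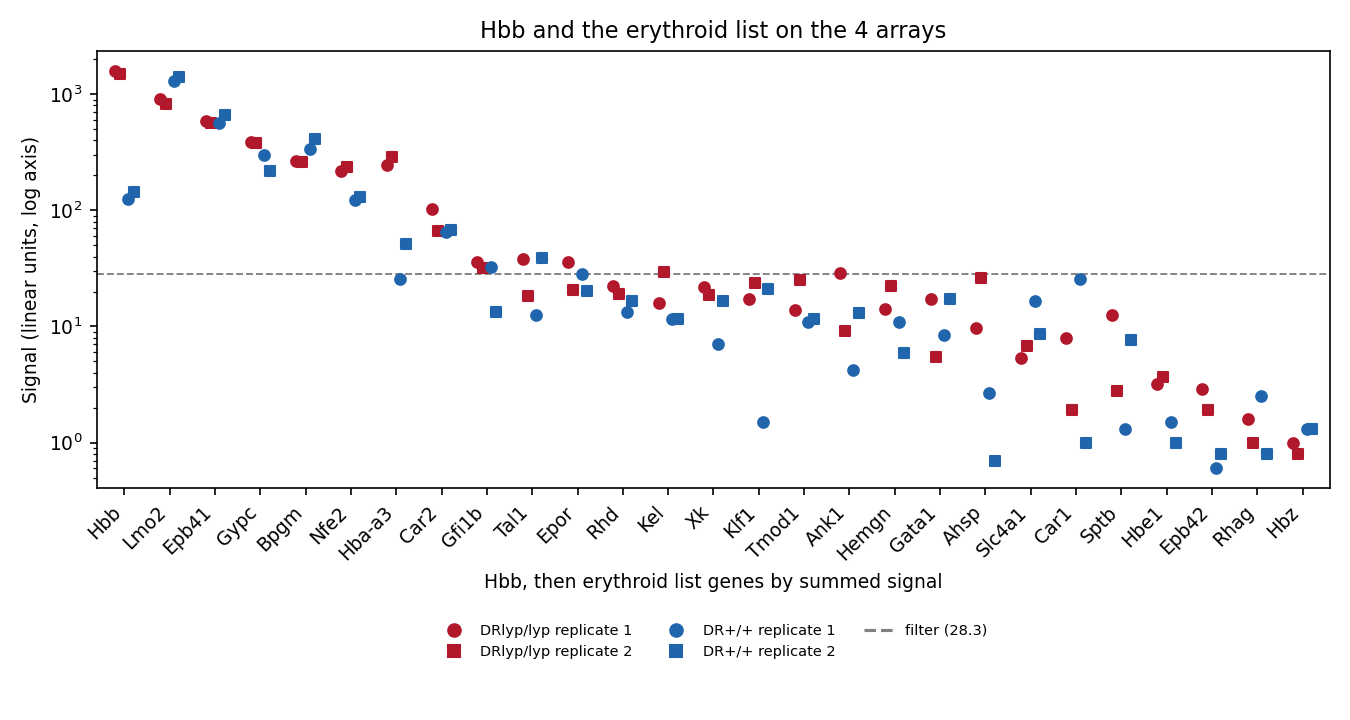
Signal (linear units on a log axis) of Hbb and, to its right, the 26 erythroid list genes ordered by their summed signal, 1 probe set per gene, on the 4 arrays. The dashed line is the filter of 28.3. Hbb and Hba-a3 have wide gaps between the pools, while red cell membrane genes such as Slc4a1 and Rhag lie below the line on every array.

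Alas1, the housekeeping form of the synthase, lay on the other side from Alas2. It read 287.2 and 307 in the DRlyp/lyp pool and 468.1 and 474.9 in the DR+/+ pool. Both DRlyp/lyp arrays were below both DR+/+ arrays, with means of 297.1 ± 14.0 and 471.5 ± 4.81 (SD, n = 2) and a log2 difference of -0.67. The difference lay between -0.78 and -0.59 under the alternatives tried. Of the 8045 probe sets on the lower side, 27.5% differed by more.

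The enzymes after the synthase moved in opposite directions along the chain. Alad, which joins 2 molecules of aminolevulinate, rose to 358.1 and 293.0 in the DRlyp/lyp pool against 133.0 and 134.3 (log2 difference 1.28 ± 0.16, SE; adjusted p = 8.25e-05). Fech, which inserts iron at the last step, rose to 173.0 and 191.7 against 106.0 and 94.2 (0.87, adjusted p = 0.00302). The enzymes of the steps just before Fech were lower. Cpox read 334.6 and 365.7 against 613.4 and 534.3 (-0.71, adjusted p = 0.00063) and Ppox 109.9 and 99.5 against 169.2 and 165.3 (-0.68, adjusted p = 0.0115). Tmem14c, which helps move porphyrin precursors into mitochondria, read 345.6 and 363.8 against 727.5 and 752.1 (-1.06, adjusted p = 1.42e-05). Urod (0.28, adjusted p = 0.0796) and Uros (-0.91, adjusted p = 0.0613, both DRlyp/lyp arrays below the filter) did not pass the threshold and were named after their values were seen, to complete the chain. Of the 13 haem synthesis genes tested other than the synthases, 5 came out higher and 3 lower, and the median was 0.28. Among all genes tested, 20.9% were called higher and 21.1% lower. Without DRlyp/lyp replicate 2 the differences of Fech (0.79, adjusted p = 0.0607) and Ppox (-0.61, adjusted p = 0.104) stayed near their size but were no longer called, and Ppox was not called without DRlyp/lyp replicate 1 either (-0.75, adjusted p = 0.0571). Without a filter Alad, Fech, Cpox and Ppox were not called (adjusted p = 0.0521, 0.0625, 0.0796 and 0.0567). Without either DRlyp/lyp array the list had 3 higher and 2 lower, and with each array centred on its median it had 5 of each.

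**Figure D3:**
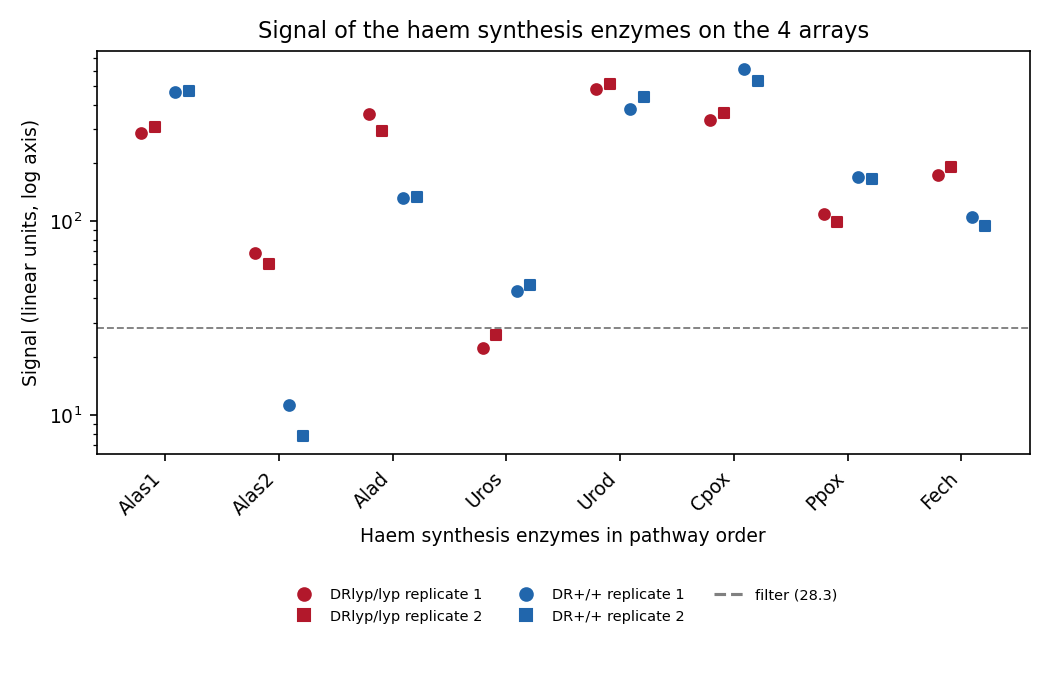
Signal (linear units on a log axis) of the haem synthesis enzymes on the 4 arrays, in pathway order from the synthases Alas1 and Alas2 to Fech, with the filter of 28.3 as a dashed line. DRlyp/lyp arrays lie above DR+/+ arrays for Alas2, Alad, Urod and Fech and below them for Alas1, Uros, Cpox and Ppox.

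Hmox1, the inducible haem oxygenase, read 110.6 and 79.6 in the DRlyp/lyp pool and 258.2 and 224.4 in the DR+/+ pool. The arrays did not overlap, and the means of 95.1 ± 21.9 and 241 ± 23.9 (SD, n = 2) gave a 2.57-fold lower signal in the DRlyp/lyp pool, or -1.36 on the log2 scale. The 2 DRlyp/lyp arrays differed from each other by 0.47 on that scale. Among probe sets on the lower side, 5.32% differed by more.

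Genes around haem oxygenase were split. Of 13 other genes of haem transport and breakdown tested, 3 came out higher and 4 lower, around a median of 0.01. Among all genes tested the shares were 20.9% higher and 21.1% lower. Haptoglobin, Hp, which binds free haemoglobin and is also stored by neutrophils, read 237.2 and 207.9 against 113 and 114.1 (0.97, adjusted p = 0.000901). Biliverdin reductase Blvrb read 44.2 and 71.9 against 122.7 and 108.8 (-1.04, adjusted p = 0.0099), and the constitutive haem oxygenase Hmox2 read 153.7 and 162.2 against 209.9 and 249.7 (-0.54, adjusted p = 0.0211). Cd163, the macrophage receptor for haptoglobin-bound haemoglobin, read 130.9 and 114.0 against 99.7 and 132.3 (adjusted p = 0.771). The call of Hp was kept in all 13 alternatives, whereas that of Blvrb was lost without DRlyp/lyp replicate 1 (-0.68, adjusted p = 0.124) and without DR+/+ replicate 1 (adjusted p = 0.0638), and that of Hmox2 without DRlyp/lyp replicate 1, DRlyp/lyp replicate 2 and DR+/+ replicate 2 (adjusted p = 0.147, 0.0967 and 0.0917). Both were also lost without a filter (adjusted p = 0.212 and 0.132) and without an intensity trend (adjusted p = 0.0585 and 0.0604). The list had 1 higher and 0 lower without DRlyp/lyp replicate 1, 1 and 1 without DRlyp/lyp replicate 2, and 4 and 2 without DR+/+ replicate 1. Summed signal of 7 neutrophil genes was 3161.7 to 3220.5 in the DRlyp/lyp pool and 1663 to 1994.8 in the DR+/+ pool, and its part in the value of Hp was not tested.

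The transferrin receptor, through which cells take up iron-loaded transferrin, was lower on the DRlyp/lyp arrays by both of its probe sets. The brighter set of Tfrc (1388750_at) read 534.1 and 521.6 against 754.9 and 751.5. The arrays lay close together within each pool and apart between them, with means of 528 ± 8.84 and 753 ± 2.40 (SD, n = 2) and a log2 difference of -0.51. The dimmer set (1371113_a_at) read 17.6 and 35.7 against 58.3 and 71.4. Its DRlyp/lyp arrays differed from each other by 1.02 on the log2 scale and replicate 1 lay below the filter, so its difference of -1.36 moved to -0.85 without DRlyp/lyp replicate 1 and to -0.59 with an offset of 50.

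The probe sets of Slc11a2, which carries ferrous iron out of endosomes and across the gut wall, did not show the same difference. The set 1367877_at read 282.4 and 227.4 in the DRlyp/lyp pool and 87.8 and 81.4 in the DR+/+ pool. Both DRlyp/lyp arrays were higher, with means of 255 ± 38.9 and 84.6 ± 4.53 (SD, n = 2) and a log2 difference of 1.58. The set 1388059_a_at read 56.1 and 42.6 against 76.5 and 41.6. Its arrays overlapped, and its difference of -0.21 changed sign to 0.23 without DR+/+ replicate 1. The differences of the 2 sets lay 1.79 apart on the log2 scale. Across the 2106 genes with more than 1 tested probe set, this spread had a median of 0.64 and a 90th percentile of 1.52, and 49.4% of them had differences of both signs. Where the probes of the 2 sets lie in the transcript is not known here.

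Iron uptake and storage genes other than the set moved in both directions. Of 13 uptake and transfer genes tested, 3 came out higher and 3 lower, around a median of 0.06. The shares over all genes tested were 20.9% and 21.1%. Steap4, a metalloreductase that reduces ferric iron, read 69.9 and 87.4 against 163.6 and 151.1 (-1.01, adjusted p = 0.00245). Pcbp1, a chaperone that hands iron to ferritin, read 3243.1 and 3239.1 against 2389.6 and 2480.7 (0.41, adjusted p = 0.000194). Of 4 genes of iron storage and ferritin turnover, Pcbp1 was the 1 higher and 0 were lower. Ncoa4, the receptor that delivers ferritin to lysosomes, read 1497.5 and 1573.0 against 1538.7 and 1684.2 (adjusted p = 0.503). The call of Steap4 was lost without a filter (adjusted p = 0.0845) and that of Pcbp1 without an intensity trend (adjusted p = 0.0635). The uptake list had 2 higher and 1 lower without either DRlyp/lyp array, and the storage list 2 higher without DRlyp/lyp replicate 1.

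Ferroportin, the only known exporter of iron from cells in mammals, was lower on the DRlyp/lyp arrays by each of its 3 probe sets. The brightest set of Slc40a1 (1390412_at) read 171.7 and 184.1 against 610.5 and 598.3. The arrays stood well apart, with means of 178 ± 8.77 and 604 ± 8.63 (SD, n = 2), and the signal was 3.40-fold lower in the DRlyp/lyp pool, or -1.77 on the log2 scale. Of the probe sets on the lower side, 2.01% differed by more. The set 1387130_at read 136.9 and 146.9 against 260.8 and 294.3, a log2 difference of -0.97. The set 1376972_at read 122.7 and 114.3 against 154.5 and 203.3, a difference of -0.58 that shrank to -0.38 without DR+/+ replicate 2. The 3 sets pointed the same way but differed in size by up to 1.18 on the log2 scale. They measure RNA of 1 gene and are not replicates.

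**Figure D4:**
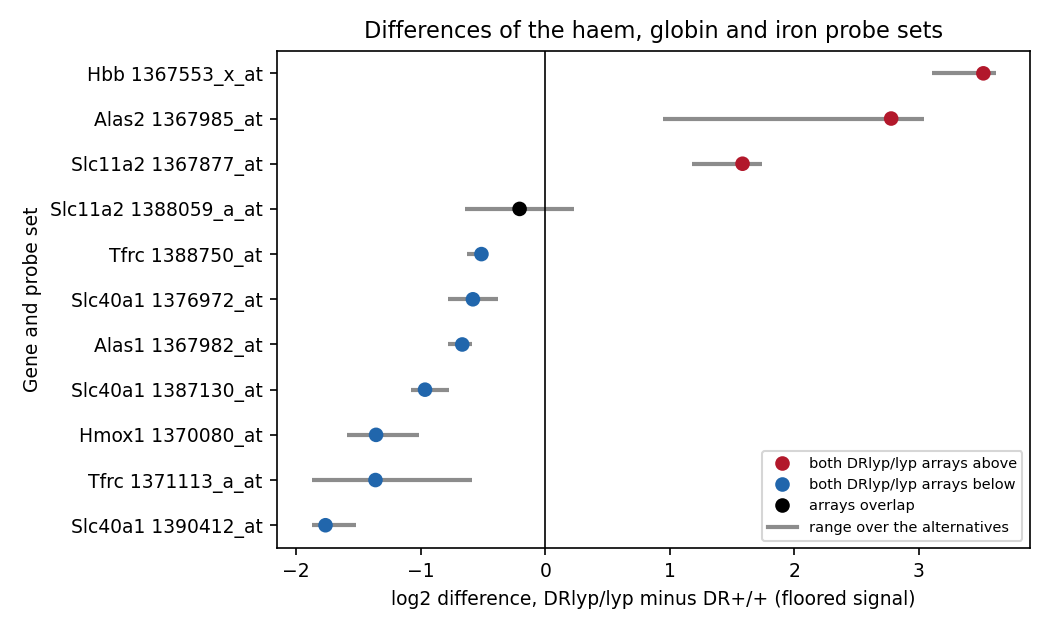
The log2 difference, DRlyp/lyp minus DR+/+, of each of the 11 probe sets (points) and its range over the alternatives in which it was computed (grey bars). Red and blue points are probe sets whose DRlyp/lyp arrays both lay above or below both DR+/+ arrays, and the black point is the overlapping set of Slc11a2, whose bar crosses 0.

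Markers of macrophages, the cells known for the most ferroportin and haem oxygenase in lymphoid tissue, moved with these genes in part. Of 13 macrophage genes tested, 9 were lower and 3 higher in the DRlyp/lyp pool, with a median of -0.91. The shares over all genes tested were 21.1% lower and 20.9% higher. C1qb, a chain of complement C1q, read 285.0 and 337.5 against 833.8 and 952.1 (-1.52, adjusted p = 2.63e-06). Vcam1, an adhesion molecule of iron-recycling macrophages and of endothelium, read 1074.2 and 1015.3 against 2878.7 and 2875.0 (-1.46, adjusted p = 4.05e-08). Spic, the factor that macrophages need to recycle red cell iron, read 267.2 and 217.4 against 470.3 and 500.2 (-1.01, adjusted p = 0.000145, or 0.0713 without a filter), and was named after its value was seen. Cd68, a lysosomal protein of macrophages, was among the higher at 2512.5 and 2567.8 against 1746.0 and 1846.1 (0.50, adjusted p = 0.000108), as was Mrc1 at 322.1 and 296.9 against 190.8 and 199.2. Leaving out DRlyp/lyp replicate 1 ended the call of Mrc1 (0.61, adjusted p = 0.063). All 13 exceeded the filter on every array. Their summed signal was 19400.4 to 19743.7 in the DRlyp/lyp pool and 22706.3 to 23162.6 in the DR+/+ pool. Lysozyme, Lyz2, made up much of it and lay on the other side (10794.5 and 10459.1 against 7377.4 and 7127.4). Without Lyz2, left out after the sums were seen, the sum was 8941.3 to 8949.2 against 15328.9 to 16035.2, and the part of these markers in the values of Slc40a1 and Hmox1 was not tested.

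Genes that govern iron release also differed in both directions. Of 9 tested genes of iron export and its control other than Slc40a1, 1 came out higher and 3 lower, around a median of -0.02. For all genes tested these shares were 20.9% and 21.1%. Bmp2, a ligand of the pathway that induces hepcidin in the liver, read 229.2 and 182.2 against 82.8 and 84.6 (1.29, adjusted p = 0.000304). Smad1, a factor of that pathway, read 353.7 and 352.4 against 546.7 and 633.6 (-0.74, adjusted p = 0.000424). Hephaestin, Heph, a ferroxidase that works beside ferroportin, read 29.2 and 29.2 against 81.3 and 58.1 (-1.23, adjusted p = 0.00912). The call of Heph was lost without DRlyp/lyp replicate 1, DRlyp/lyp replicate 2 or DR+/+ replicate 1 (adjusted p = 0.0579, 0.056 and 0.0628), and all 3 calls were lost without a filter (adjusted p = 0.0601 for Bmp2, 0.0664 for Smad1 and 0.134 for Heph). The list had 1 higher and 1 lower without either DRlyp/lyp array.

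Among the genes of iron-regulated translation, Epas1 had the largest difference. Epas1, a hypoxia-inducible factor whose messenger carries an iron-responsive element and which endothelium also expresses, read 705.9 and 755.1 in the DRlyp/lyp pool and 78.2 and 109.6 in the DR+/+ pool (log2 difference 2.98 ± 0.17, SE; adjusted p = 1.98e-07), a call kept in all 13 alternatives. Aco1, the iron regulatory protein that doubles as an aconitase, read 171.4 and 167.0 against 284.6 and 324.4 (-0.84, adjusted p = 0.000858, or 0.053 without a filter). Its partner Ireb2 read 62.9 and 57.7 against 65.8 and 57.4 (adjusted p = 0.943). Of the 7 genes of iron-regulated translation tested, 3 came out higher and 2 lower, beside 20.9% and 21.1% of all genes. Their median was -0.03. Without DRlyp/lyp replicate 1 there were 2 and 1, without DRlyp/lyp replicate 2 there were 1 and 1, and with each array centred on its median there were 1 and 2.

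Iron-sulfur clusters draw on the same mitochondrial iron as haem. Of 17 genes of their assembly tested, 4 came out higher and 5 lower, beside 20.9% and 21.1% of all genes. The median of the 17 was -0.10. Glrx5, a glutaredoxin that passes clusters on and is needed for haem synthesis in red cell precursors, read 199.4 and 145.8 against 449.9 and 419.1 (-1.35, adjusted p = 6.58e-05, or 0.0815 without a filter). Nubp1, a scaffold of cytosolic cluster assembly, read 1915.4 and 1854.5 against 1456.1 and 1376.8 (0.41, adjusted p = 0.00075, a call lost without a filter at 0.0574 and without an intensity trend at 0.0669). Without either DRlyp/lyp array the list had 1 higher and 3 lower.

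Of 19 tested genes of the response to haem and oxidants, 2 were called higher and 7 lower, beside 20.9% and 21.1% of all genes. The median of the 19 was 0.06. The 2 called higher were Nr1h3 (0.35, adjusted p = 0.0148) and Mitf (0.51, adjusted p = 0.0376). Besides factors the list holds enzymes, among them Txnrd1, which was called lower, and the transporter Slc7a11. Nfe2l2, the main activator of Hmox1 on oxidant stress, read 1109.6 and 1018.6 against 1502.8 and 1559.7 (-0.53, adjusted p = 0.000304). The part of Nfe2l2 in the value of Hmox1 was not tested. Usf1 and Usf2, which bind E-boxes, read 64.3 and 59.7 against 148.7 and 133.0 (-1.18, adjusted p = 0.00111) and 89.4 and 95.3 against 189.9 and 189.9 (-1.04, adjusted p = 0.000823). With the mean of its probe sets Usf2 was not past the threshold (-0.62, adjusted p = 0.0786). The list had 0 higher without DRlyp/lyp replicate 1, without DRlyp/lyp replicate 2 and with each array centred on its median, and 6, 5 and 7 lower. Without DR+/+ replicate 1 it had 1 higher and 5 lower.

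Of 10 tested genes of globin expression control, 2 came out higher and 4 lower, beside 20.9% and 21.1% of all genes. The median of the 10 was 0.04. Nfe2, Lmo2, Gfi1b and Tal1 are on the erythroid list too, so the counts of these lists overlap. Myb, which keeps blood progenitors dividing, read 102.8 and 125.4 against 43.1 and 48.1 (1.32, adjusted p = 0.00141). Bcl11a, which silences fetal globin and is also a B cell factor, read 371.0 and 380.4 against 702.7 and 597.1 (-0.79, adjusted p = 0.000258). Both calls were lost without a filter (adjusted p = 0.0656 and 0.0704), and the list had 2 higher and 2 lower without either DRlyp/lyp array. It had 4 higher and 3 lower without DR+/+ replicate 1.

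Over all these lists, 103 haem and iron genes other than the set were tested. Of them 23 were higher and 31 lower, or 52.4%, beside 42% of all genes tested. Their median log2 difference was 0.01, beside 0.00 for all genes. Without DRlyp/lyp replicate 1 there were 12 higher and 16 lower, and without DRlyp/lyp replicate 2 there were 11 and 16. Their share was then 27.2% beside 23.8% of all genes, and 26.2% beside 25.9%. Without a filter 6 of 121 were higher and 4 lower, or 8.26% beside 7.32%.

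**Figure D5:**
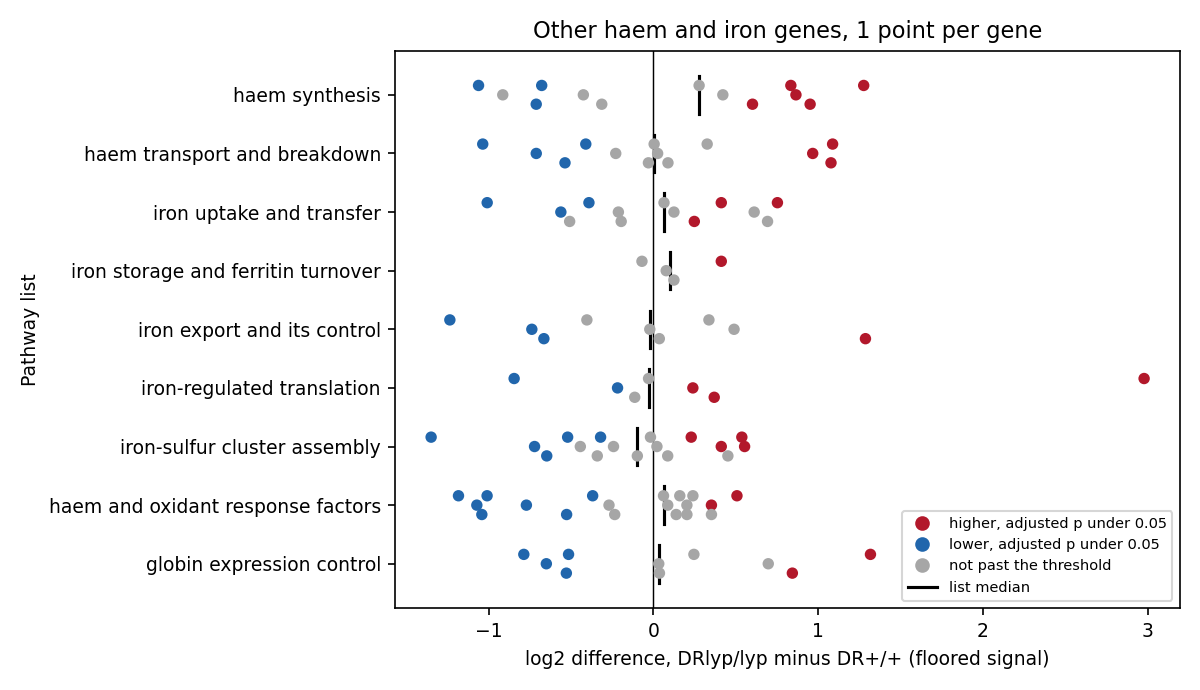
The log2 difference, DRlyp/lyp minus DR+/+, of each tested gene of the 9 pathway lists, 1 point per gene at its brightest tested probe set. Red and blue points passed an adjusted p of 0.05 (limma), grey points did not, and black bars are list medians, which lie between -0.10 and 0.28. The point near 3 is Epas1.

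The genes whose profile over the 4 arrays lay nearest to that of Hbb were Il1rl1, Cd3e, Sh3bgr, Bcl11b and Ctrl, out of 4681 genes on the same side. Likeness was the root mean square distance between log2 profiles centred on their means, and it ran from 0.07 for Il1rl1 to 0.26 for Ctrl. The DR+/+ arrays of Il1rl1 (10.3 and 12.1) and Sh3bgr (2.6 and 5.0) lay below the filter, so their gaps are known only as at least 4.13-fold and 2.24-fold and their places in this order depend on the floor. Nearest to Slc40a1 (1390412_at) were RT1-CE5, Edem2, Gpnmb, Eif2ak3 and Fam3c, out of 4666, at distances of 0.04 to 0.07. Gpnmb, a glycoprotein of macrophages, read 560.9 and 641.9 against 1920.5 and 1863.5. With 4 arrays in 2 pools, such a profile is in the main the size of the gap between the pools.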

How the data were processed

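The authors deposited 1 intensity value per probe set and array, on a linear scale. The summarising program and scaling behind them were not given in the sources used here. A mean trimmed by 2% at each end came to 150.1 on every array, and no further scaling was applied. Groups and replicate numbers came from the sample titles. The genes and lists were chosen with earlier results of these data known.

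Probe sets were named from the platform annotation, with symbols checked through Entrez numbers against the RefSeq table of GRCr8 (0 changed). After removal of 57 control sets, values were floored at 6.8 and log2 transformed. The 16068 probe sets above 28.3 on at least 2 arrays entered limma 3.58.1 (R 4.3.3), with its moderated test following the intensity trend on 2 residual degrees of freedom, two-sided, with Benjamini-Hochberg adjustment and a threshold of 0.05. The script was tested on simulated data. For a gene with several tested probe sets the brightest stood for it in lists. Some genes stood on several lists, so the counts of different lists are not independent. A fold is on the floored scale, and a pool below 28.3 on both arrays was set at 28.3 to give a bound.

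Named were all probe sets of the set and, per list, up to 3 called genes each way whose arrays did not overlap between pools, or the brightest tested gene where none was called, of which the text gives examples. Kit, Cd163, Ncoa4, Ireb2, Nfe2l2, Txnrd1 and Slc7a11, and the red cell genes below the filter, were named outside this rule, after their values were seen. The planned comparison of protein sequences was not made. Replicate numbers were not taken to pair the arrays, since the deviations of same-numbered arrays correlated at 0.04. Alternatives covered scaling, filter, floor, trend, probe set choice, a replicate block and leaving out each array. Plots used matplotlib 3.10.9 (Python 3.11.15).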

Additional observations from a re-analysis of the deposited data

How the results depend on the processing

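Of the 11 probe sets of the haem, globin and iron genes, 10 kept their direction under every alternative in which they were computed, and the overlapping set of Slc11a2 did not. With each array centred on its median the median of all genes moved to -0.11 and calls on the higher side made up 36% of all calls, against 49.3% otherwise. With all arrays, 6302 probe sets were called, 3104 higher and 3198 lower. Without a filter, where 3502 probe sets lay at the floor on all 4 arrays, there were 1671 (844 and 827). Without an intensity trend there were 4057 (1932 and 2125). Leaving out each array gave 3478 to 5800, with 1595 to 2987 higher and 1883 to 2813 lower. Of the haem and iron list genes, 54 were called, 23 higher and 31 lower. Without a filter there were 10 (6 and 4), and without a trend 31, of which 9 were higher. Leaving out each array gave 27 to 50, with 11 to 24 higher and 16 to 26 lower. With the replicate block, 7044 probe sets and 56 list genes (24 and 32) were called. Of the 55 list genes followed, 0 reversed and 44 lost a call in at least 1 alternative. The number of arrays and the dim signal of genes such as Alas2 limit the precision.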
